A study of Mus musculus with 12 samples.

Results

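H19 and 9 other imprinted genes that regulate growth, Igf2, Igf2r, Dlk1, Meg3, Peg3, Mest, Plagl1, Cdkn1c and Grb10, were followed in endothelial cells (ECs) that FACS had isolated from the lungs of pups of the C57BL/6J strain at postnatal day 5 (P5). The 10 genes were taken by symbol out of 24359 usable genes, and all 10 were present under the same name in all 12 libraries. They share a biology, and the set was chosen by the lower H19 values of the L12-ECKO libraries against WT, so H19 in that contrast is given as a description. There were 4 libraries in each of 3 groups. L12YT-ECKO mice carried VE-cadherin-CreERT2 with floxed Lats1, Lats2, Yap and TAZ alleles. L12-ECKO mice carried the same endothelial Cre driver with floxed Lats1 and Lats2 only. The third group was labelled wild type (WT). Whether the WT mice carried the Cre, and when or whether an inducer was given, is not stated in the labels, nor is whether each library stands for its own animal. P-values therefore measure the spread between these libraries only. Lats1 and Lats2 encode the Hippo kinases that restrain the co-activators YAP and TAZ, and TAZ is encoded by Wwtr1.

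Imprinted genes are transcribed mainly from a single parental allele, and many of them act on fetal and neonatal growth. Igf2, a growth factor read from the paternal allele, and H19, a noncoding RNA read from the maternal allele, share enhancers across a control region that CTCF binds on the maternal chromosome. Dlk1, a transmembrane protein related to Notch ligands and read from the paternal allele, and Meg3, a noncoding RNA read from the maternal allele, form a second such pair. Most of these genes are highly active before birth and are turned down as organs mature, and neonatal liver and mesenchyme are known for high levels of several of them.

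H19 lies on chromosome 7 of the mm10 (GRCm38) build, at 142575529 to 142578143 on the minus strand, and is annotated as a long intergenic noncoding RNA. Its neighbour Igf2 lies at 142650766 to 142666816 on the same strand, with 72623 bases between the genes, and Cdkn1c lies on the same chromosome at 143458339 to 143461050. Dlk1 and Meg3 lie on chromosome 12, at 109452823 to 109463336 and 109541001 to 109571726. Peg3 lies on chromosome 7 (6703892 to 6730431), Mest on chromosome 6 (30723547 to 30748465), Plagl1 on chromosome 10 (13060504 to 13131694), Grb10 on chromosome 11 (11930508 to 12038683) and Igf2r on chromosome 17 (12682406 to 12769664). QuantSeq reads start from 3-prime transcript ends, so the end of H19 is shown first. It is the last 150 bases of the longest annotated H19 transcript, which has 2286 bases in 5 exons, taken from GENCODE M21. These bases belong to its last exon, at chr7:142575529-142575678 on the minus strand, and the capitals mark the polyadenylation signal.
H19 3-prime end: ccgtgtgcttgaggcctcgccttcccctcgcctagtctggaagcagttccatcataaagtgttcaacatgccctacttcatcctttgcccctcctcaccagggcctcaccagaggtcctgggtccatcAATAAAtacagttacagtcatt
Exon 1 of the same transcript holds the hairpin of Mir675 (142577064 to 142577147), which is cut from H19 RNA. The mature miRNAs are shown as the small RNAs that depend on H19 as their precursor, from RefSeq on GRCm38.p6, with the seed (bases 2 to 8) in capitals. Their seeds differ.
mmu-miR-675-5p: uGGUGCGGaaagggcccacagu
mmu-miR-675-3p: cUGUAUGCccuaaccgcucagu
Mature miRNAs were not measured by these libraries. The separate row for the Mir675 hairpin was above 0 in 4 of 4 L12YT-ECKO libraries, in 1 of 4 L12-ECKO libraries and in 1 of 4 WT libraries. Its highest log2 value, 6.32, was in L12-ECKO. The lowest value above 0 of any gene was 3.01 to 3.16 in the WT libraries and 0.13 to 2.77 in the L12YT-ECKO libraries. The lowest Mir675 value of L12YT-ECKO, 1.39, was the lowest above 0 in replicate 2. The numbers of libraries above 0 are therefore not comparable between groups.

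All values are log2 expression that the authors had already normalized, so each added unit doubles the level, and no read depth is known for them. The genes above 0 numbered 9850 to 13078 in a library. The 15 endothelial markers checked, among them Pecam1 and Cdh5, were above 0 in every library, and the log2 of their summed linear values was 18.34 to 18.50 in L12YT-ECKO, 18.28 to 18.34 in L12-ECKO and 18.37 to 18.39 in WT. Of the targeted genes, Wwtr1 averaged 8.81 ± 0.51 in L12YT-ECKO, 11.18 ± 0.71 in L12-ECKO and 11.81 ± 0.19 in WT (SD, n = 4 each), and Yap1 averaged 7.72 ± 0.69, 9.97 ± 0.53 and 9.79 ± 0.24 in the same groups. Lats2 averaged 8.97 ± 0.43 in L12YT-ECKO, 9.93 ± 0.29 in L12-ECKO and 8.93 ± 0.42 in WT, and Lats1 was scattered, with a value of 0 in 1 library of each knockout group. Which exons are deleted is not stated in the labels, and a 3-prime tag outside them checks nothing. In 5 libraries (L12YT-ECKO replicates 3 and 4 and L12-ECKO replicates 2, 3 and 4) a block of 33 rows, none of them a member, is displaced by a row, which separates a batch of 5 from a batch of 7 that holds all WT libraries. By the level of Xist, 3 of 4 L12-ECKO libraries, 1 of 4 L12YT-ECKO libraries and 1 of 4 WT libraries were female.

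H19 was highly expressed in all 12 libraries and was lowest in the L12-ECKO group. Its log2 values were 13.24, 13.25, 12.84 and 12.36 in L12YT-ECKO replicates 1 to 4. They were 11.85, 11.32, 11.58 and 10.70 in the L12-ECKO libraries. They were 13.19, 13.29, 13.70 and 12.42 in the WT libraries. Every L12-ECKO library lay below every library of the other groups, whereas the L12YT-ECKO and WT libraries overlapped. H19 averaged 11.36 ± 0.49 in L12-ECKO, against 13.15 ± 0.53 in WT (SD over 4 libraries each). That is a log2 difference of -1.79 (SE 0.30), or a 3.46-fold lower level. In the batch of 7 libraries, which holds a single L12-ECKO library, the difference was -1.31 (SE 0.39), with the batch as a covariate it was -1.305 (SE 0.345), and with sex as a covariate it was -1.50 (SE 0.30). Since these are bulk libraries, fewer cells that express H19 and less H19 RNA per cell cannot be told apart.

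**Figure D1:**
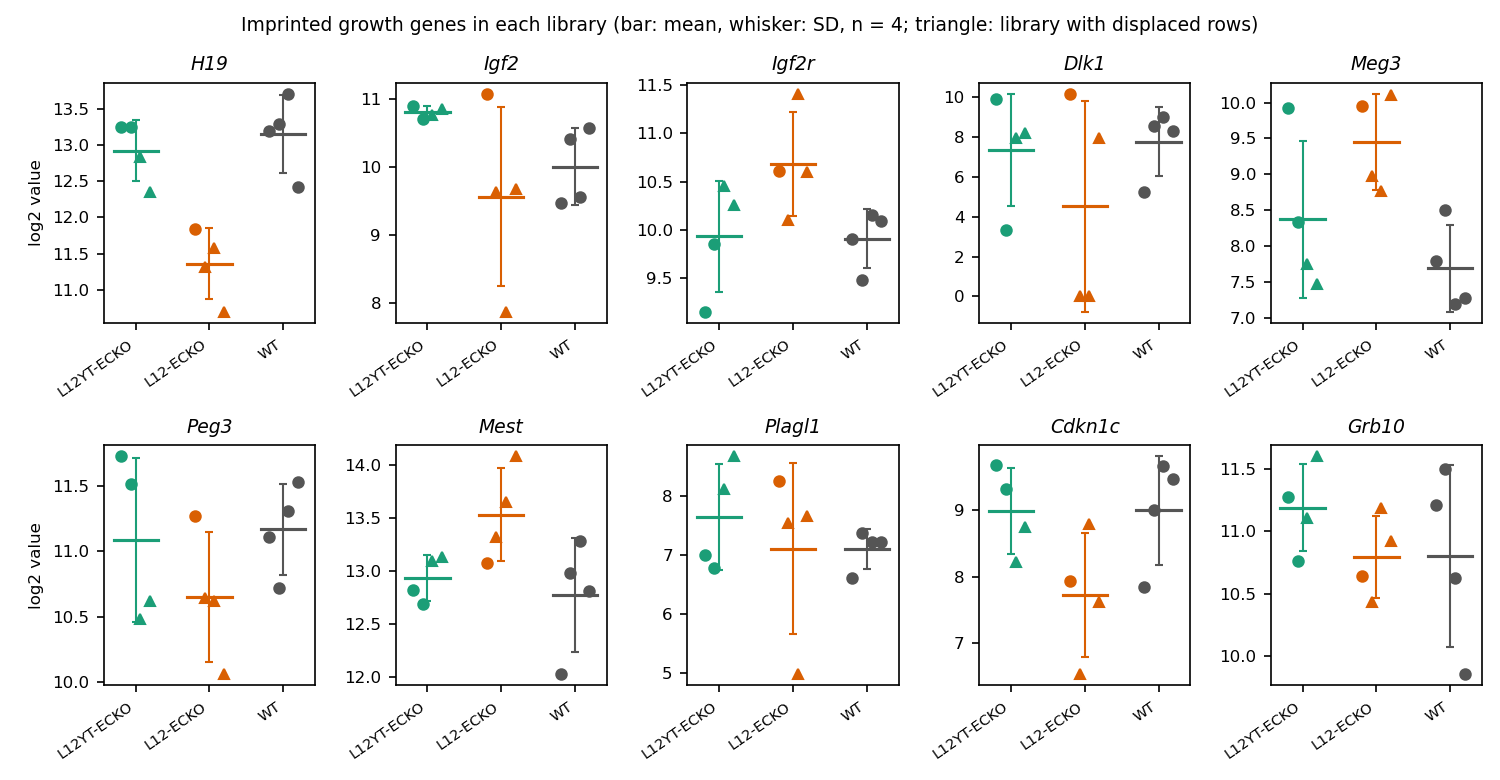
Log2 value (y axis) of each of the 10 genes in every library, grouped as L12YT-ECKO, L12-ECKO and WT (x axis). Horizontal bars are group means, whiskers are SDs of 4 libraries, and triangles are libraries of the batch with displaced rows. The H19 points of L12-ECKO lie at 10.70 to 11.85, below all others, and the Dlk1 points of L12-ECKO include 2 at 0.

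H19 was then compared between the groups that differ in YAP and TAZ. It averaged 12.92 ± 0.42 in L12YT-ECKO, against 11.36 ± 0.49 in L12-ECKO, which gives a log2 difference of 1.56 (SE 0.30), or a 2.95-fold higher level. All 4 L12YT-ECKO libraries were above all 4 L12-ECKO libraries. Adjusted over all genes, the difference did not pass the threshold of 0.05 (limma adjusted p = 0.0579). The L12-ECKO libraries are the ones whose low H19 chose the set, so a positive difference here was favoured by that choice. Within the batch of 7 the difference was 1.40 (SE 0.42), and within the batch of 5 it was 1.40 (SE 0.38), with limma adjusted p of 0.465 and 0.796. The batch of 7 holds 1 L12-ECKO library, replicate 1, which is assumed there to vary like the other groups and whose immune markers were the highest of all, so that its p says little about the difference. With sex as a covariate it was 1.27 (SE 0.30, limma adjusted p = 0.285). The adjusted p fell under the threshold without WT replicate 4 (0.0452), L12-ECKO replicate 1 (0.0479) or L12YT-ECKO replicate 4 (0.0488). It lay between 0.0536 and 0.263 without any of the other 9 libraries.

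Between L12YT-ECKO and WT, H19 averaged 12.92 ± 0.42 in L12YT-ECKO and 13.15 ± 0.53 in WT. The log2 difference of -0.23 (SE 0.30) did not pass (limma adjusted p = 0.922), and the sign was positive within the batch of 7, at 0.095 (SE 0.298). A miss of the threshold does not show that these groups have equal levels.

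**Figure D2:**
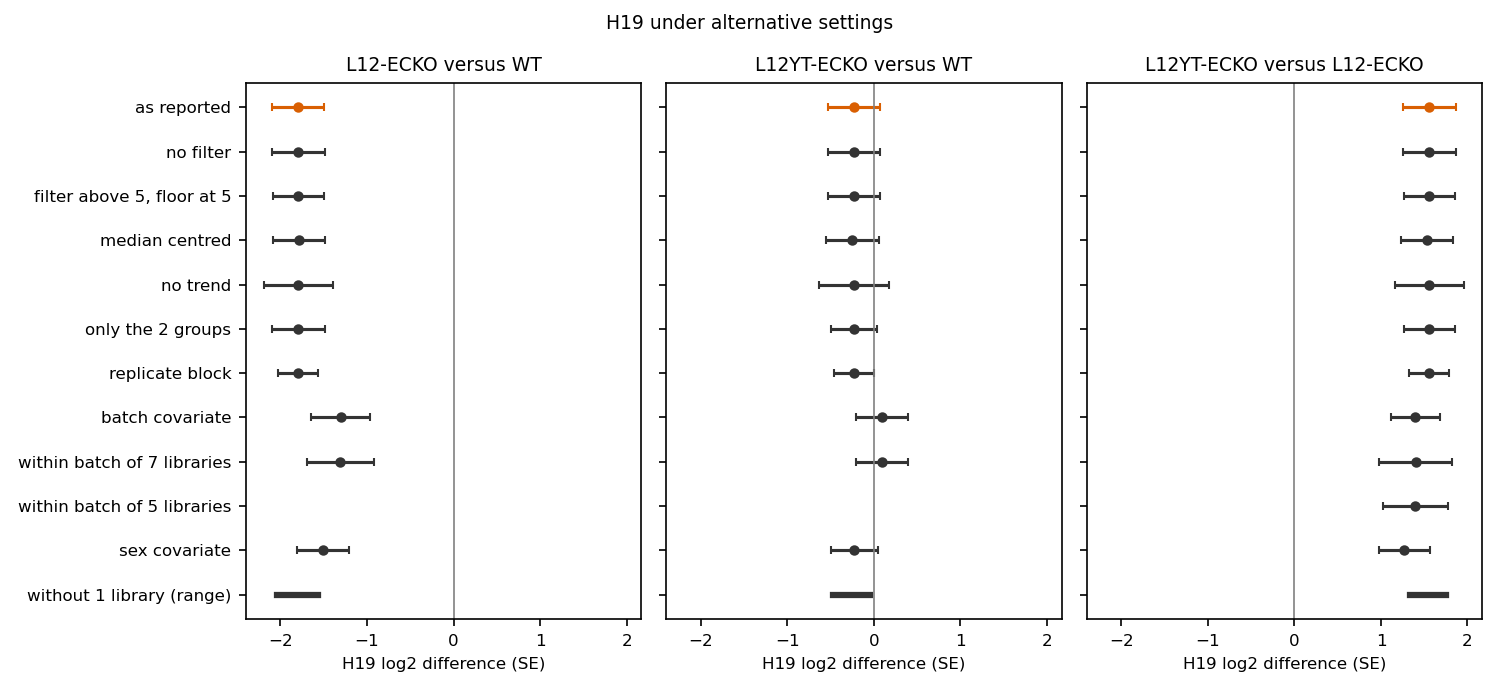
Log2 difference of H19 between groups (x axis, whiskers are limma SEs) under each setting of the fit (y axis), in L12-ECKO versus WT, L12YT-ECKO versus WT and L12YT-ECKO versus L12-ECKO. The thick bar at the bottom is the range over fits that each leave out 1 library. L12-ECKO versus WT stayed between -2.03 and -1.305 and L12YT-ECKO versus L12-ECKO between 1.27 and 1.75, whereas L12YT-ECKO versus WT crossed 0; the setting with a second logarithm is on another scale and is not drawn.

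Markers of other cell types were measured beside it. The log2 of the summed linear values of 18 hepatocyte genes was 8.60 to 11.28 in L12YT-ECKO, 9.14 to 12.42 in L12-ECKO and 8.06 to 9.93 in WT. Between 14 and 17 of the 18 genes were above 0 in the libraries with displaced rows, against 2 to 7 in the other libraries. Afp, an albumin family gene, was the only one of the 18 listed at 0 in all 12 libraries, and nothing is read from it alone. The same sum over 16 mesenchymal genes was 14.43 to 15.35 in L12YT-ECKO, 14.97 to 15.50 in L12-ECKO and 14.50 to 15.06 in WT. For 12 epithelial genes it was 11.07 to 12.86 in L12YT-ECKO, 9.90 to 12.52 in L12-ECKO and 10.72 to 13.07 in WT. For 13 immune genes it was 6.99 to 10.12, 7.45 to 16.46 and 6.98 to 11.78 in the same groups, with the maximum of 16.46 in L12-ECKO replicate 1. For 10 red cell and platelet genes it was 15.08 to 16.95, 14.36 to 16.47 and 14.86 to 17.45. In L12-ECKO versus WT 12 of 12 hepatocyte genes tested had a positive difference (median 3.71). Hepatocyte genes could pass the filter mainly through the libraries with displaced rows, which hold 3 L12-ECKO libraries and no WT library. Nothing is therefore read from that count. L12-ECKO replicate 1, outside that batch, had 6 hepatocyte genes above 0 and a sum of 9.14, within the WT range. Of the mesenchymal genes 4 of 13 had a positive difference (median -0.82), so the high mesenchymal sums of L12-ECKO did not extend to most of that list. L12-ECKO replicate 3 had 9 of the 16 mesenchymal genes above 0, against 11 to 16 in the other libraries. The part of these markers in the H19 values was not tested.

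Igf2, the paternally read growth factor beside H19, was far more variable among the L12-ECKO libraries than H19, with SDs of 1.31 for Igf2 and 0.49 for H19. Its log2 values were 10.91, 10.71, 10.77 and 10.86 in L12YT-ECKO. They were 11.08, 9.64, 7.87 and 9.68 in L12-ECKO, and 9.48, 10.42, 9.56 and 10.58 in WT. The L12-ECKO libraries spanned the whole range seen in the study, holding both its highest and its lowest Igf2 value. The L12YT-ECKO libraries lay between 10.71 and 10.91, all above WT. Against WT the log2 difference of L12YT-ECKO was 0.80 (SE 0.49), which did not pass in any fit (limma adjusted p from 0.632 to 0.995), and in L12YT-ECKO versus L12-ECKO it was 1.24 (SE 0.49, limma adjusted p = 0.711). That second difference was -0.27 within the batch of 7 and 1.75 within the batch of 5. The L12-ECKO minus WT difference was -0.44 (SE 0.49, limma adjusted p = 0.745), with 1.07 within the batch of 7.

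The relation of H19 to Igf2 was also taken within each library. H19 exceeded Igf2 in all 12 libraries. H19 minus Igf2 was 2.33, 2.54, 2.06 and 1.49 on the log2 scale in L12YT-ECKO. It was 0.77, 1.68, 3.70 and 1.02 in L12-ECKO, and 3.71, 2.87, 4.15 and 1.84 in WT. The group means were 2.11 ± 0.45 in L12YT-ECKO, 1.79 ± 1.33 in L12-ECKO and 3.14 ± 1.02 in WT (SD, n = 4 each), and the groups overlapped. Its difference between L12YT-ECKO and WT was -1.04 (two-sided exact permutation p = 0.143, adjusted p = 0.429 over 3 tests). Between L12YT-ECKO and L12-ECKO it was 0.32 (two-sided exact permutation p = 0.743, adjusted p = 0.743), a value that also holds the L12-ECKO levels of H19 that chose the set. The smallest p that 4 against 4 libraries allow is 0.0286. For L12-ECKO minus WT the difference was -1.35, a description only, as H19 there chose the set.

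Igf2r, the receptor that carries Igf2 to lysosomes for breakdown, had its highest mean in L12-ECKO. It averaged 9.93 ± 0.58 in L12YT-ECKO, 10.68 ± 0.54 in L12-ECKO and 9.91 ± 0.30 in WT (SD, n = 4 each). Single values ran from 9.15 to 10.46 in L12YT-ECKO, 10.10 to 11.41 in L12-ECKO and 9.48 to 10.15 in WT, so neighbouring groups overlapped. The log2 difference was -0.75 (SE 0.35, limma adjusted p = 0.814) in L12YT-ECKO versus L12-ECKO and 0.02 (SE 0.35, limma adjusted p = 0.996) in L12YT-ECKO versus WT. Between L12-ECKO and WT it was 0.77 (SE 0.35, limma adjusted p = 0.392), and 0.375 (SE 0.435) with the batch as a covariate. Grb10, an adaptor that damps signals of the insulin and IGF receptors, showed no such order. It averaged 11.19 ± 0.35 in L12YT-ECKO, 10.80 ± 0.33 in L12-ECKO and 10.80 ± 0.73 in WT, with a log2 difference of -0.0045 (SE 0.34) in L12-ECKO versus WT.

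Meg3 was the member whose L12-ECKO libraries were all above WT. Its log2 values were 9.93, 8.33, 7.75 and 7.47 in L12YT-ECKO. They were 9.95, 8.98, 8.77 and 10.10 in L12-ECKO, and 7.79, 8.51, 7.18 and 7.27 in WT. The L12YT-ECKO libraries overlapped both other groups. Meg3 averaged 9.45 ± 0.67 in L12-ECKO, against 7.69 ± 0.61 in WT. The log2 difference of 1.76 (SE 0.54) did not pass (limma adjusted p = 0.179). It was 2.26 (SE 0.84) in the batch of 7 and 2.63 (SE 0.64) with the batch as a covariate. In L12YT-ECKO, with a mean of 8.37 ± 1.10, it differed from L12-ECKO by -1.08 (SE 0.54, limma adjusted p = 0.83) and from WT by 0.68 (SE 0.54, limma adjusted p = 0.871).

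Dlk1, the protein-coding partner of Meg3, was scattered in all groups. Its log2 values were 9.91, 3.32, 7.93 and 8.19 in L12YT-ECKO. They were 10.15, 0, 0 and 7.94 in L12-ECKO, and 5.22, 8.56, 8.99 and 8.29 in WT. The 2 values of 0 stand in L12-ECKO replicates 2 and 3, and such a 0 can also be a failed detection. L12-ECKO replicate 1 held the highest Dlk1 value of all libraries. The SE of every group difference was 2.29, and neither comparison of L12YT-ECKO passed (limma adjusted p = 0.988 against WT and 0.956 against L12-ECKO). The L12-ECKO minus WT difference of -3.24 did not pass either (limma adjusted p = 0.581). Meg3 minus Dlk1 could be taken where both were above 0 throughout, and it averaged 1.03 ± 2.68 in L12YT-ECKO and -0.08 ± 1.90 in WT (SD, n = 4 each; two-sided exact permutation p = 0.514, adjusted p = 0.743 over 3 tests).

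Cdkn1c, which encodes the cell-cycle inhibitor p57Kip2, had the order of groups that H19 had. Its log2 values were 9.68, 9.31, 8.22 and 8.74 in L12YT-ECKO. They were 7.94, 6.54, 8.78 and 7.62 in L12-ECKO, and 7.84, 8.999, 9.66 and 9.47 in WT. L12-ECKO replicate 3 and WT replicate 1 brought the groups to overlap. The log2 difference was 1.27 (SE 0.53, limma adjusted p = 0.749) in L12YT-ECKO versus L12-ECKO and -0.01 (SE 0.53, limma adjusted p = 0.998) in L12YT-ECKO versus WT. The L12-ECKO minus WT difference was -1.27 (SE 0.53, limma adjusted p = 0.347), and -0.74 (SE 0.67) with the batch as a covariate.

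Mest, a paternally read gene of the hydrolase family, had its highest values in L12-ECKO. The 4 libraries gave 12.82, 12.68, 13.09 and 13.13 in L12YT-ECKO, 13.07, 13.32, 13.65 and 14.08 in L12-ECKO, and 12.02, 12.97, 13.28 and 12.81 in WT. The groups overlapped. The log2 difference was -0.60 (SE 0.27, limma adjusted p = 0.798) in L12YT-ECKO versus L12-ECKO and 0.16 (SE 0.27, limma adjusted p = 0.94) in L12YT-ECKO versus WT. In L12-ECKO versus WT it was 0.76 (SE 0.27, limma adjusted p = 0.247), and 0.30 (SE 0.39) in the batch of 7. The 3-prime end of Mest lies inside Copg2, a coatomer subunit gene of the opposite strand, and no label states the strand setting of the counting, so reads of the overlap cannot be told apart. Copg2 averaged 11.41 ± 0.16 in L12YT-ECKO, 11.96 ± 0.42 in L12-ECKO and 11.13 ± 0.45 in WT, with a log2 difference of 0.83 (SE 0.28) in L12-ECKO versus WT, a similar size.

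The zinc-finger genes varied between libraries more than between groups. Peg3, a paternally read zinc-finger gene, averaged 11.09 ± 0.63 in L12YT-ECKO, 10.65 ± 0.50 in L12-ECKO and 11.17 ± 0.35 in WT (SD, n = 4 each). The 5 libraries with displaced rows lay at 10.06 to 10.64, below the 7 others, which lay at 10.72 to 11.73. The L12-ECKO minus WT difference of -0.52 (SE 0.34, limma adjusted p = 0.541) became 0.11 (SE 0.41) in the batch of 7. Plagl1, also called Zac1, a transcription factor known in mice to act on other imprinted genes, averaged 7.65 ± 0.91 in L12YT-ECKO, 7.11 ± 1.45 in L12-ECKO and 7.11 ± 0.34 in WT. Its lowest value, 4.98, was that of L12-ECKO replicate 3, the library with the fewest genes above 0. No value above 0 in that library was lower, so Plagl1 stood at its limit of detection there.

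**Figure D3:**
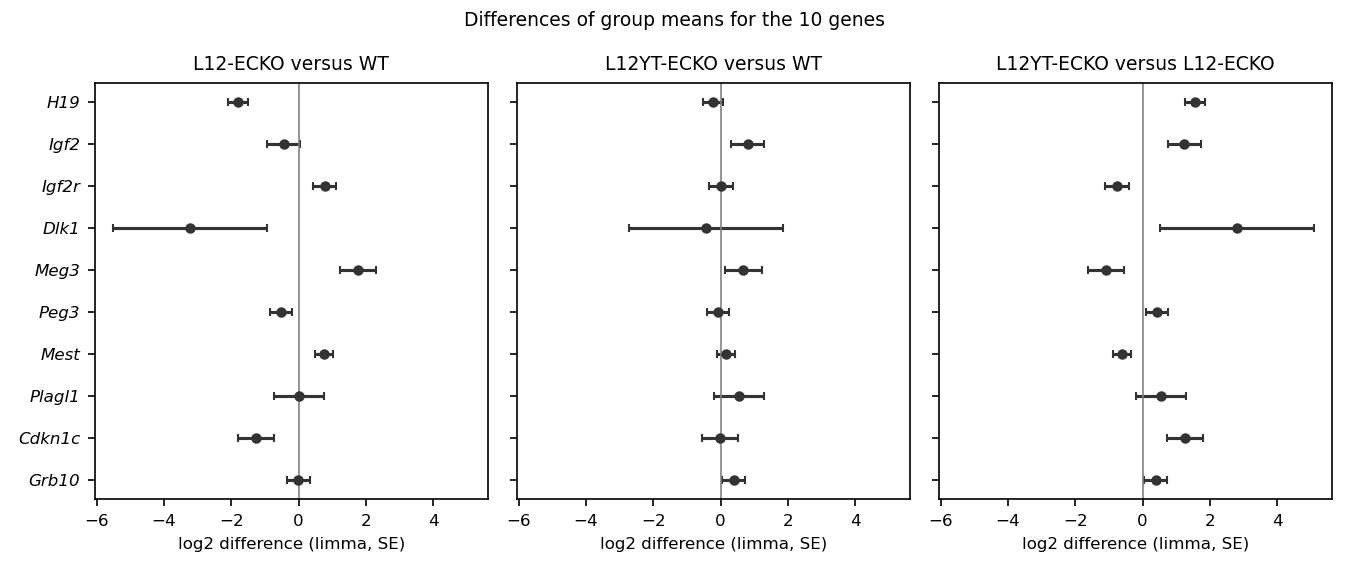
Log2 difference of group means (x axis, whiskers are limma SEs) for each of the 10 genes (y axis) in L12-ECKO versus WT, L12YT-ECKO versus WT and L12YT-ECKO versus L12-ECKO. H19 stands at -1.79, -0.23 and 1.56 in the panels from left to right, and Dlk1 has the widest error, with an SE of 2.29.

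All 10 genes passed the filter on low values and were tested among 11778 genes. In L12-ECKO versus WT limma called 1 of the 10, which was H19, where 0.475% of all genes tested were called. The call was lost, with 0 of the 10, with the batch or the sex as a covariate, within the batch of 7 and without a trend in the prior variance, and the batch of 5 holds 3 of the 4 L12-ECKO libraries and no WT library. As this contrast chose the set, nothing is read from that count. Values of 2 of the 10 did not overlap between L12-ECKO and WT, where 6.27% of all genes tested did not: H19 was lower, beside 3.34% of all genes, and Meg3 was higher, beside 2.93%. In L12YT-ECKO versus WT none of the 10 was called by limma and none had an unadjusted p under 0.05, where 0.00849% and 6.21% of all genes tested were. There Igf2 alone did not overlap, beside 4.69% of all genes tested. Igf2 was higher, as were 2.53% of all genes, and no member was lower, as were 2.16%. In L12YT-ECKO versus L12-ECKO none of the 10 was called by limma, where 0.0679% of all genes tested were (0.0594% lower and 0.00849% higher). Values of H19 alone did not overlap there, where 4.36% of all genes tested did not (2.74% higher and 1.61% lower), and 5 of the 10 (H19, Igf2, Igf2r, Mest and Cdkn1c) had an unadjusted p under 0.05, beside 6.1% of all genes tested. In L12-ECKO versus WT that number was also 5 of the 10, beside 12.1% of all genes tested. Both comparisons use the L12-ECKO libraries whose low H19 chose the set, so nothing is read from these counts either. The median difference of the 10 was -0.22 in L12-ECKO versus WT, 0.09 in L12YT-ECKO versus WT and 0.49 in L12YT-ECKO versus L12-ECKO. Over all genes tested it was -0.02, 0.08 and 0.09. The comparisons share libraries pairwise, so their values for a gene are not independent.

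Whether members moved together from library to library was examined on deviations from the group means, over the 9 members above 0 in every library and all 36 pairs among them. No pair passed in exact permutations within groups (smallest adjusted p = 0.325 by Pearson r). The pair with the smallest p by Pearson r was Igf2 and Plagl1 (r = 0.783, exact permutation p = 0.00904; rho = 0.545, exact permutation p = 0.0544, adjusted p = 0.398; n = 12 libraries). Without the 2 libraries farthest from the median of Igf2, r was 0.467. L12-ECKO replicate 3 held the lowest value of both genes, and its Plagl1 value stood at the limit of detection of that library. Igf2r and Meg3 went in opposite directions (r = -0.744, exact permutation p = 0.0201, adjusted p = 0.362; rho = -0.811, exact permutation p = 0.00658, adjusted p = 0.237). Without the 2 libraries farthest from the median of Igf2r, r was -0.551. With deviations taken from batch means as well, no pair passed either (smallest adjusted p = 0.374).

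Over the 12 libraries the genes whose log2 values were most like those of H19, out of 10627 genes with a mean of at least 3, were Fam129b (Pearson r = 0.944), the ubiquitin ligase gene Lrsam1 (0.929), the glutamine synthetase gene Glul (0.917), the metalloprotease gene Adam15 (0.911) and the chloride channel family gene Clic5 (0.907). Clic5 averaged 10.53 ± 0.47 in L12YT-ECKO, 9.06 ± 0.37 in L12-ECKO and 11.08 ± 0.47 in WT (SD, n = 4 each). All 5 were lower in every L12-ECKO library than in any WT library, as were 3.34% of all genes tested. Their choice by likeness to H19 favoured this. Strong negative correlations were those of the adhesion molecule gene Mcam (-0.894) and Arpc1b, a subunit of the actin-nucleating Arp2/3 complex (-0.874). Mcam averaged 12.90 ± 0.38 in L12YT-ECKO, 13.81 ± 0.50 in L12-ECKO and 12.53 ± 0.13 in WT. These genes were picked for their likeness in the same libraries, so no p is given. Among the members, Cdkn1c (r = 0.669) and Peg3 (0.616) ranked 266 and 424 of the 10627, and Mest (-0.695), Igf2r (-0.631) and Meg3 (-0.528) stood near the opposite end. These correlations keep the differences between groups, and so largely restate the low L12-ECKO values of H19 that chose the set. On deviations from the group means r with H19 was 0.272 for Cdkn1c, 0.50 for Peg3, -0.303 for Mest, -0.173 for Igf2r and 0.243 for Meg3. With batch means removed as well it was 0.059 for Cdkn1c, -0.003 for Peg3, -0.016 for Mest, 0.168 for Igf2r and -0.203 for Meg3.

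**Figure D4:**
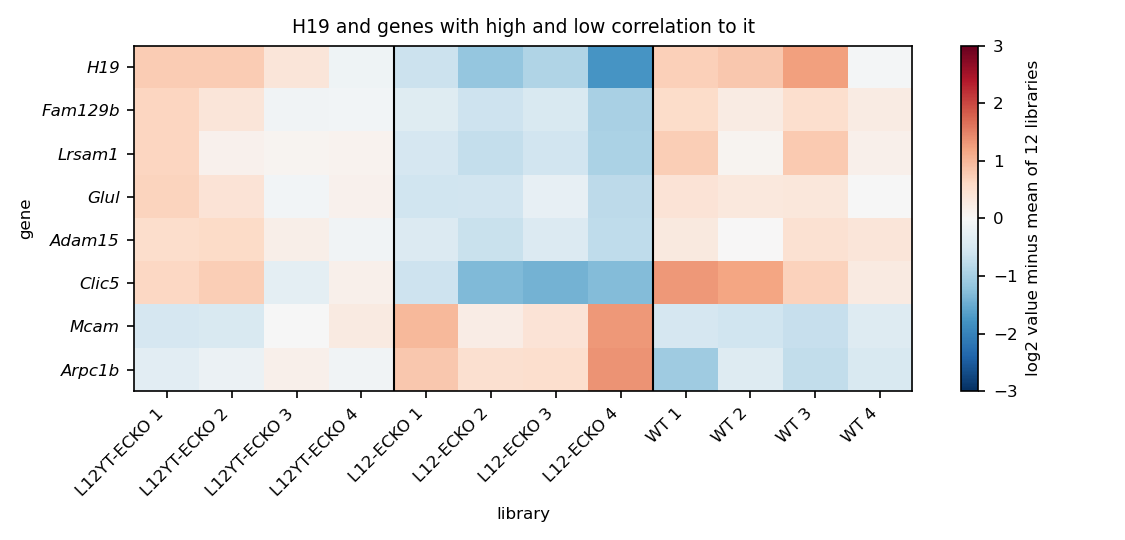
Log2 value minus the mean of the 12 libraries (colour) for H19, the 5 genes with the highest Pearson correlation to it and 2 with a strongly negative one (y axis), by library (x axis, L12YT-ECKO, L12-ECKO and WT from left to right). The L12-ECKO columns are blue for H19 to Clic5 and red for Mcam and Arpc1b, whose correlations with H19 were -0.894 and -0.874.

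Other genes of the same biology were taken from lists chosen for this purpose. Of 51 other imprinted genes 35 were tested, and limma called none in any comparison. Their median log2 difference was -0.18 in L12-ECKO versus WT, 0.10 in L12YT-ECKO versus WT and 0.07 in L12YT-ECKO versus L12-ECKO. For every list, the shares called and the medians over all genes tested are those given for the 10 genes. The members with the highest levels were Gnas, the gene of the stimulatory G protein alpha subunit, and Nap1l4, a histone chaperone gene. Gnas differed by -0.01 (SE 0.28) in L12-ECKO versus WT, and by -0.32 (SE 0.28) in L12YT-ECKO versus WT. Nap1l4 differed by 0.31 (SE 0.30) and 0.11 (SE 0.30). Among 18 genes neighbouring H19 and Igf2 on chromosome 7, 10 were tested and limma called none. Their medians were -0.105, 0.445 and 0.41 in L12-ECKO versus WT, L12YT-ECKO versus WT and L12YT-ECKO versus L12-ECKO. Tnnt3, Lsp1 and Tnni2 averaged 0 in WT and passed the filter through knockout libraries only. Their differences against WT could only be positive, so nothing is read from the medians against WT. Tssc4 differed by -0.44 (SE 0.34), 0.24 (SE 0.34) and 0.68 (SE 0.34) in the same order of comparisons. Cd81, Tssc4, Kcnq1 and Nap1l4 are also in the list of other imprinted genes.

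Of 22 genes for IGF ligands, receptors, binding proteins and adaptors, 17 were tested. Among L12-ECKO versus WT differences 1 was called higher and none lower, where 0.289% of all genes tested were called higher and 0.187% lower. The median was -0.61, beside -0.02 over all genes tested. The called gene was Igfbp3, which encodes a binding protein that holds IGF in the extracellular space. It averaged 10.18 ± 1.695 in L12-ECKO and 6.185 ± 1.13 in WT (SD, n = 4 each), higher by 3.99 on the log2 scale (SE 0.76, limma adjusted p = 0.0261). Of the 4 L12-ECKO libraries 3 are in the batch of 5, which holds no WT library, and 3 are female, against 1 WT library. Over all genes, the 56 calls of this contrast became 15 with the batch covariate and 17 with the sex covariate. No value of Igfbp3 with either covariate is given. Limma called none of the 17 in L12YT-ECKO versus WT, with a median of 0.06, and none in L12YT-ECKO versus L12-ECKO, with a median of 0.26. Of 24 genes for imprint maintenance and DNA methylation 22 were tested, and limma called none in any comparison. Their medians were -0.29 in L12-ECKO versus WT, -0.27 in L12YT-ECKO versus WT and -0.02 in L12YT-ECKO versus L12-ECKO. In L12-ECKO versus WT and in L12YT-ECKO versus WT alike, 17 of the 22 differences were negative. Dnmt1, the maintenance DNA methyltransferase gene, differed by 1.002 (SE 0.26, limma adjusted p = 0.114) in L12-ECKO versus WT. It alone of the 22 did not overlap there, beside 6.27% of all genes tested (2.93% higher). In L12YT-ECKO versus WT Ctcf, Ctcfl and Tet1 were lower without overlap and none was higher, beside 2.16% and 2.53% of all genes tested. Dnmt1 differed by 0.18 (SE 0.26) in L12YT-ECKO versus WT. Setdb1, a histone methyltransferase gene, differed by -0.06 (SE 0.40) and 0.31 (SE 0.40) in the same comparisons.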

How the data were processed

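Per the labels' protocols, total RNA was extracted with Trizol and libraries were made with the Lexogen QuantSeq kit. Tools named in the submitters' processing notes are edgeR and Bowtie2, with the mm10 build; their roles, versions and counting settings are not stated there. The deposited tables hold 1 log2 value per gene for 24421 genes. That the authors quantile-normalized them was worked out from the values, which at any of the 5000 highest ranks spread by no more than 0.168 over the libraries; this removes differences in total output. Whole reads could not be recovered. Left out were 27 genes that a spreadsheet renamed as dates in 2 libraries and 35 further rows. Of these rows 33 were the displaced block, and the rest, among them Rn45s, lay outside it.

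Genes reaching a CPM of 1 in 4 or more libraries, computed from the unlogged values, numbered 11778 and were tested. limma 3.58.1 (R 4.3.3, statmod 1.5.0; trend and robust prior) fitted group means over 12 libraries with 9 residual degrees of freedom, and genes were called at a Benjamini-Hochberg adjusted p under 0.05 over all genes. The fit was also run on simulated data, drawn as independent normal values per gene without a batch or sex effect. Nothing is read from that run about the calls in these libraries. Single measures were tested with exact permutations (SciPy 1.17.1). Sex, for a covariate, was read from Xist and Ddx3y. Named genes were the 10 members, the targeted genes, the 5 most and 3 least like H19 (1 of these is not reported here), and of each list the called genes or else the 2 with the highest mean. Members and lists were chosen with earlier results of these data known.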

Additional observations from a re-analysis of the deposited data

How the results depend on the processing

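Without 1 library in turn, the H19 difference was -2.03 to -1.57 in L12-ECKO versus WT and 1.34 to 1.75 in L12YT-ECKO versus L12-ECKO. The negative sign in L12-ECKO versus WT was fixed by the choice of H19. A positive sign in L12YT-ECKO versus L12-ECKO was favoured by that choice. The L12-ECKO values of H19 do not overlap the others, but they are the values that chose the set, so nothing is read from this. The count of members called in L12-ECKO versus WT, 1 as reported, was 0 without a trend in the prior variance, with the batch covariate, within the batch of 7 and with the sex covariate, and 1 without any single library. In L12YT-ECKO versus L12-ECKO the count, 0 as reported, was 1 with the filter above 5 and with the replicate block, and 0 to 1 without 1 library. With that block H19 had a limma adjusted p of 0.0126 there, and its adjusted p ran from 0.0126 to 0.796 over all fits. On deviations from group means, same-numbered libraries correlated at -0.044 to 0.057 and the own number correlated best in 6 of 24 cases. No pairing by number was seen in this measure, which cannot exclude that same-numbered libraries belong together. The batch of 5 holds no WT library, so it gave no value against WT.

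Signs of uncalled members changed as follows. In L12-ECKO versus WT, Igf2 was 0.20 with the batch covariate, 1.07 within the batch of 7 and -0.94 to 0.13 without 1 library. Dlk1 was 2.38 and Peg3 0.11 within the batch of 7, and Peg3 0.21 with the batch covariate. Plagl1 was -0.0181 after a second logarithm, -0.15 with the batch covariate and -0.38 to 0.71 without 1 library. Grb10 was 0.0011 after a second logarithm, 0.0045 after median centring, 0.19 with the sex covariate and -0.32 to 0.23 without 1 library. In L12YT-ECKO versus WT, the batch covariate and the batch of 7 gave 0.094 and 0.095 for H19, -0.24 and -0.41 for Igf2r, 0.40 and 0.45 for Peg3, -0.075 and -0.022 for Mest, and 0.35 and 0.50 for Cdkn1c. Dlk1 was 0.77 with the batch covariate, Plagl1 -0.22 within the batch of 7 and Cdkn1c 0.0005 after a second logarithm. Without 1 library the ranges were -0.15 to 0.28 for Igf2r, -1.29 to 0.91 for Dlk1, -0.29 to 0.12 for Peg3, -0.091 to 0.33 for Mest and -0.39 to 0.25 for Cdkn1c. In L12YT-ECKO versus L12-ECKO, Igf2 was -0.27, Dlk1 -3.54 and Plagl1 -1.37 within the batch of 7, and Plagl1 was -0.17 to 0.92 without 1 library. H19 minus Igf2 ran from -0.025 to 0.954 there without 1 library, and Meg3 minus Dlk1 from -0.217 to 1.99 in L12YT-ECKO versus WT. The cause of these changes was not tested. Correlated pairs stayed at 0 in every fit, with a smallest adjusted p of 0.0522.

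Over all genes, 56 were called in L12-ECKO versus WT. The count was 21 with no filter, 87 with the filter above 5, 29 after a second logarithm, 7 without a trend, 37 with only both groups, 15 with the batch covariate, 17 with the sex covariate and 15 to 80 without 1 library. The 8 genes of L12YT-ECKO versus L12-ECKO became 4 after a second logarithm, 2 without a trend, 5 with only both groups, 5 with the sex covariate, 15 within the batch of 7, 0 within the batch of 5 (limma; 401 at an unadjusted p under 0.05) and 4 to 9 without 1 library. The 1 gene of L12YT-ECKO versus WT became 0 without a trend (limma; 695 at an unadjusted p under 0.05) and 1 to 3 without 1 library. Depth is unknown, so low values such as those of Dlk1 carry no interval.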

Other observations

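Commd1, an imprinted gene outside the 10, was picked after its values were seen. It averaged 9.63 in L12-ECKO and 8.11 in WT without overlap, which differ by 1.53 on the log2 scale (SE 0.41, limma adjusted p = 0.125), and in L12YT-ECKO versus L12-ECKO it differed by -1.15 (SE 0.41, limma adjusted p = 0.643), again without overlap. Sgce, likewise picked afterwards, differed by 1.05 (SE 0.42, limma adjusted p = 0.711) in L12YT-ECKO versus L12-ECKO and by 0.47 (SE 0.42, limma adjusted p = 0.877) in L12YT-ECKO versus WT, without overlap in either. Of the 35 other imprinted genes tested, 1 was higher without overlap in L12-ECKO versus WT and none lower, beside 2.93% and 3.34% of all genes. In L12YT-ECKO versus WT 1 was higher and none lower, beside 2.53% and 2.16%. In L12YT-ECKO versus L12-ECKO 1 was higher and 2, Commd1 and Copg2, were lower, beside 2.74% and 1.61%. Nothing is read from these separations.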
